A study of Mus musculus with 9 samples.

Results

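The data described here are the transcripts of 9 genes that mark B cells and plasma cells, measured in aged mouse liver. They are Ms4a1, Cd79a, Cd79b, Cd22, Ebf1, Ighm, Igkc, Jchain and Mzb1, chosen by symbol out of 27179 Entrez genes in the deposited table, and all 9 were found. The mice were C57BL/6J with a wild-type genotype, and the labels state no sex. At 17 months of age each received, by the retro-orbital route, an AAV8 vector that carried saCas9, a small Cas9 nuclease, under TBG, a promoter active in hepatocytes, together with a guide RNA driven by U6, at 3e11 vg (vector genomes) per mouse. The guide was directed at Rosa26, a site commonly cut as a neutral control (sgRosa26, n = 4), or at Ccnd1, which encodes cyclin D1 (sgCcnd1, n = 5). Poly(A) RNA of a flash-frozen piece of the liver m-lobe was sequenced 3 weeks later. All animals thus carried the nuclease, and none was left without vector. The labels do not say whether animals shared a litter or a day. The letters A to D stand for the sgRosa26 libraries and E to I for the sgCcnd1 libraries, in column order, since the columns carry no replicate number.

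B cells recognise antigen through a membrane immunoglobulin paired with a signalling dimer of CD79A and CD79B. Activated B cells can become plasma cells, which lose most surface markers and secrete immunoglobulin. Their secretory pathway needs chaperones such as MZB1, and polymeric IgM and IgA are linked by the joining chain. The liver holds blood-borne and resident B cells and plasma cells, and hepatocytes carry polymeric immunoglobulin into bile in rodents. The vector's promoter is not directed at any of these lymphoid cells. In bulk tissue, fewer cells of a type and less RNA per cell cannot be told apart.

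The promoter sequence next to 1 surface member and next to 1 secretion member is shown. With 1 gene of each class and stretches of unequal length, the 2 classes cannot be compared. Both stretches are from RefSeq on GRCm38.p6 (the submitters' processing notes name GRCm38) and lie upstream of the annotated start and outside exons of GENCODE M21. The Cd79a stretch is 134 bases on the plus strand at chr7:24897247-24897380, and the Jchain stretch is 250 bases on the minus strand at chr5:88527898-88528147. Capitals mark matches to the searched motifs.
Cd79a: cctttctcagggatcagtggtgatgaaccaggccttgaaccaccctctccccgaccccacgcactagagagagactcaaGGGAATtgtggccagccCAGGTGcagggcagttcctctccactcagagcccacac
Jchain: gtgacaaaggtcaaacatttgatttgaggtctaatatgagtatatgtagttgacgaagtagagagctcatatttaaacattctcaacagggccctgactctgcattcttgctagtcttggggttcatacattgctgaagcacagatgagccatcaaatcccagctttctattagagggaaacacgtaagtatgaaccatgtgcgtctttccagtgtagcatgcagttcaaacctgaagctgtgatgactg
Searched on both strands were the octamer ATTTGCAT bound by Oct factors, the palindrome of early B cell factor (TCCC and GGGA with any 2 bases between them), its single arm GGGAAT, the E-box CAGGTG and the Ets core AGGAAG. A single arm can overlap the palindrome. The capitals in Cd79a are 1 match to the single arm, starting 171 bases before the start site, and 1 match to the E-box, starting 154 bases before it. Over 32851 RefSeq promoter windows of 250 bases, the single arm was in 11.4%, the E-box in 17.2%, the Ets core in 29.5%, the octamer in 1.6% and the palindrome in 0.779%. The Cd79a window also held an Ets core 55 bases before the start site, outside the printed stretch. The Jchain stretch had 0 matches to the 5 motifs. RefSeq windows matched 4 of the 9 members (Cd79a, Cd22, Ebf1 and Jchain). The octamer was in 0 of their 5 windows, and the palindrome was in the window of Cd22. These matches describe letters only, and no factor binding was measured here.

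Depth ranged from 10.8 M reads in library I to 20.2 M reads in library E. The hepatocyte gene Ttr, which encodes transthyretin, was at 61352 to 107912 normalized counts in all 9 libraries. Ccnd1, the targeted gene, had 684, 800, 625 and 867 normalized counts in A to D and 428, 347, 370, 339 and 325 in E to I. It was the only gene that limma called over the whole table (log2 fold change -1.03, limma adjusted p = 0.0116). The limma call was lost without B, D, F, H or I, where the log2 fold change was -1.02 to -0.96 and the limma adjusted p 0.0559 to 0.0852 (0.0612 without H). DESeq2 called 76 genes lower and 41 higher. It called Ccnd1 with all 9 libraries and without H (DESeq2 adjusted p = 9.13e-12 and 1.06e-08). Library H stood apart, with 2 normalized counts of the Y-linked gene Ddx3y against 810 to 1154 in the other 8. Summed over 4 Y-linked genes, H had 2.0 normalized counts and the other 8 had 1619 to 2834. Every control thus had Y-linked reads while 1 sgCcnd1 library had almost none, so results are also given without H where they differ. Normalized counts are reads divided by a size factor of each library. A gene was tested if its mean over the 9 libraries was at least 10 normalized counts, which 12993 genes and 8 of the 9 members reached.

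No member passed the test between the groups, and 1 of the 9 was too low to be tested. In limma 0 of the 8 tested members passed an adjusted p of 0.05 in either direction, where 0.0077% of all genes tested were called lower and 0% higher. The count model edgeR called 0 members, against 0.0077% of genes lower and 0% higher, and DESeq2 called 0 of the 6 members to which it gave an adjusted p (not Ms4a1 or Mzb1), against 0.634% lower and 0.342% higher. At an unadjusted limma p under 0.05 there was 1 member lower, Mzb1, and 0 higher, where all genes gave 5.74% lower and 5.22% higher. The same gene was the only member whose groups did not overlap, and over all genes 1.97% were lower without overlap and 1.92% higher. The log2 fold change was below 0 in all 8 tested members, against 47.1% of all genes, with a median of -0.42 against 0.01. For Cd79b, Ighm and Jchain that sign turned in some alternatives.

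The lymphocyte surface genes came first. Ms4a1 (Entrez 12482, chr19:11249679-11266149) encodes CD20, the B cell surface protein targeted by therapeutic antibodies. It was at 18.4, 26.3, 25.3 and 21.4 normalized counts in A to D and at 28.2, 13.4, 14.7, 17.0 and 9.93 in E to I. Library E was the highest of all 9, and the other 4 sgCcnd1 libraries lay below every control. The group means were 22.9 ± 3.64 (SD, n = 4) and 16.6 ± 6.95 (SD, n = 5), or -0.50 on the log2 scale (SE 0.279, limma adjusted p = 0.531).

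Cd79a (Entrez 12518, chr7:24897497-24901858) encodes a chain of the signalling dimer, with a tyrosine-based activation motif in its tail. Its values were 28.3, 35.9, 35.7 and 32.0 normalized counts in A to D and 42.7, 18.8, 25.5, 30 and 14.2 in E to I. E was again the highest and I the lowest of the 9, and the ranges of the groups overlapped. The fitted log2 difference (sgCcnd1 minus sgRosa26) was -0.41 ± 0.276 (standard error; limma adjusted p = 0.607). Its partner Cd79b (Entrez 15985, chr11:106311341-106314562) was at 27.1, 25.4, 28.2 and 39.8 normalized counts in A to D. In E to I it was at 45.0, 24.2, 28.4, 32.0 and 14.2. The sgCcnd1 range of Cd79b enclosed the whole sgRosa26 range, and limma put the log2 fold change at -0.13 (SE 0.286, adjusted p = 0.900).

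Cd22 (Entrez 12483, chr7:30865404-30880342) encodes an inhibitory sialic-acid-binding co-receptor of the B cell receptor. It had 46.7, 53.5, 46.0 and 71.9 normalized counts in A to D and 65.6, 26.9, 53.8, 38.0 and 27.0 in E to I. Its highest value was in the control library D and E was next. Limma gave a log2 fold change of -0.43 (SE 0.269) and an adjusted p of 0.579. Without library E, the log2 fold change was -0.70 for Ms4a1, -0.60 for Cd79a, -0.31 for Cd79b and -0.60 for Cd22, with limma adjusted p-values of 0.282, 0.352, 0.673 and 0.348. The groups then did not overlap in Ms4a1 and Mzb1, where 4.27% of all genes tested were lower without overlap in the same libraries. Without library I, the log2 fold change was -0.35 for Ms4a1, -0.22 for Cd79a, 0.087 for Cd79b and -0.29 for Cd22. The limma adjusted p-values were then 0.726, 0.820, 0.941 and 0.775.

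Ebf1 (Entrez 13591, chr11:44618100-45008096) encodes the factor that commits progenitors to the B lineage and is also expressed by stromal and fat cells. It did not reach the minimum mean and was not tested. It was covered by 1, 7, 5 and 4 reads in A to D and by 8, 4, 13, 6 and 1 in E to I, and so varied among single-digit to low double-digit counts. On the scale of normalized counts this was 1.23 to 6.14 in sgRosa26 and 1.42 to 12.7 in sgCcnd1, with no detectable difference (exact permutation p = 0.492, two-sided). Library G was the highest for Ebf1, and B and E came next at 6.14 and 6.10 normalized counts (7 and 8 reads). At so few reads, these ranks cannot tell whether Ebf1 followed the surface genes. Cxcl12, Dcn, Reln, Col3a1 and the other mesenchymal markers, 11 of 12 of them tested, had 0 called in limma, 4 lower at an unadjusted p under 0.05 and a median log2 fold change of -0.27. They had summed normalized counts of 10452 to 13197 in sgRosa26 and 9256 to 11855 in sgCcnd1, of which Cxcl12 alone made 6353 to 6648 and 5216 to 6456. Their part in the Ebf1 level was not tested.

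Of the reads on the members, the immunoglobulin genes carried most. Ighm (Entrez 16019, chr12:113418826-113422730) is the constant region of the IgM heavy chain, made by naive B cells as a membrane form and by IgM plasma cells as a secreted form. It was at 1215, 2433, 970 and 1077 normalized counts in A to D and at 2605, 995, 1343, 1055 and 808 in E to I. Libraries B and E, 1 of each group, stood far above the other 7, and the groups overlapped. In limma this came to -0.09 on the log2 scale (SE 0.324, adjusted p = 0.941).

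Igkc (Entrez 16071, chr6:70726435-70726754) is the constant region of the kappa light chain, used by most mouse B cells. Its values were 1087, 1196, 521 and 483 normalized counts in A to D and 941, 302, 583, 467 and 319 in E to I. A and B were the highest followed by E, and 3 of the 5 sgCcnd1 libraries lay below every control. The fitted log2 difference (sgCcnd1 minus sgRosa26) was -0.66 ± 0.349 (standard error; limma adjusted p = 0.510). Without library E it was -0.91 (limma adjusted p = 0.266) and without library B -0.44 (limma adjusted p = 0.783).

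Jchain (Entrez 16069, chr5:88519809-88527897) encodes the joining chain of polymeric IgM and IgA and marks antibody-secreting cells. It was at 191, 297, 97.6 and 58.3 normalized counts in A to D and at 231, 84.2, 149, 114 and 112 in E to I. Both the highest and the lowest library, B and D, were controls, so the sgRosa26 range enclosed all of sgCcnd1. Limma gave a log2 fold change of -0.05 (SE 0.408) and an adjusted p of 0.976.

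Mzb1 (Entrez 69816) encodes an endoplasmic reticulum protein of marginal zone B cells, B1 cells and plasma cells that helps assemble IgM, and plasmacytoid dendritic cells express it as well. It was at 13.5, 21.0, 11.3 and 10.7 normalized counts in A to D and at 8.39, 9.85, 6.85, 4 and 7.10 in E to I. Every sgCcnd1 library lay below every control, which no other member showed. The means were 14.1 ± 4.77 (SD, n = 4) and 7.24 ± 2.17 (SD, n = 5), a log2 fold change of -0.87 (SE 0.320). It did not pass over all genes (unadjusted limma p = 0.0176, limma adjusted p = 0.354), and the exact permutation p was 0.0159, where 0.00794 is the smallest this design allows. Without library H its log2 fold change was -0.71 (limma adjusted p = 0.605). Its reads were few, with 11, 24, 12 and 11 reads in A to D and 11, 11, 7, 4 and 5 in E to I, and the nearest libraries of the groups, D and F, had 11 reads each. Siglech, which marks plasmacytoid dendritic cells, had 0 to 7.89 normalized counts, and the whole list of dendritic markers is given with the other cell types. The part of those cells in the Mzb1 level was not tested.

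**Figure D1:**
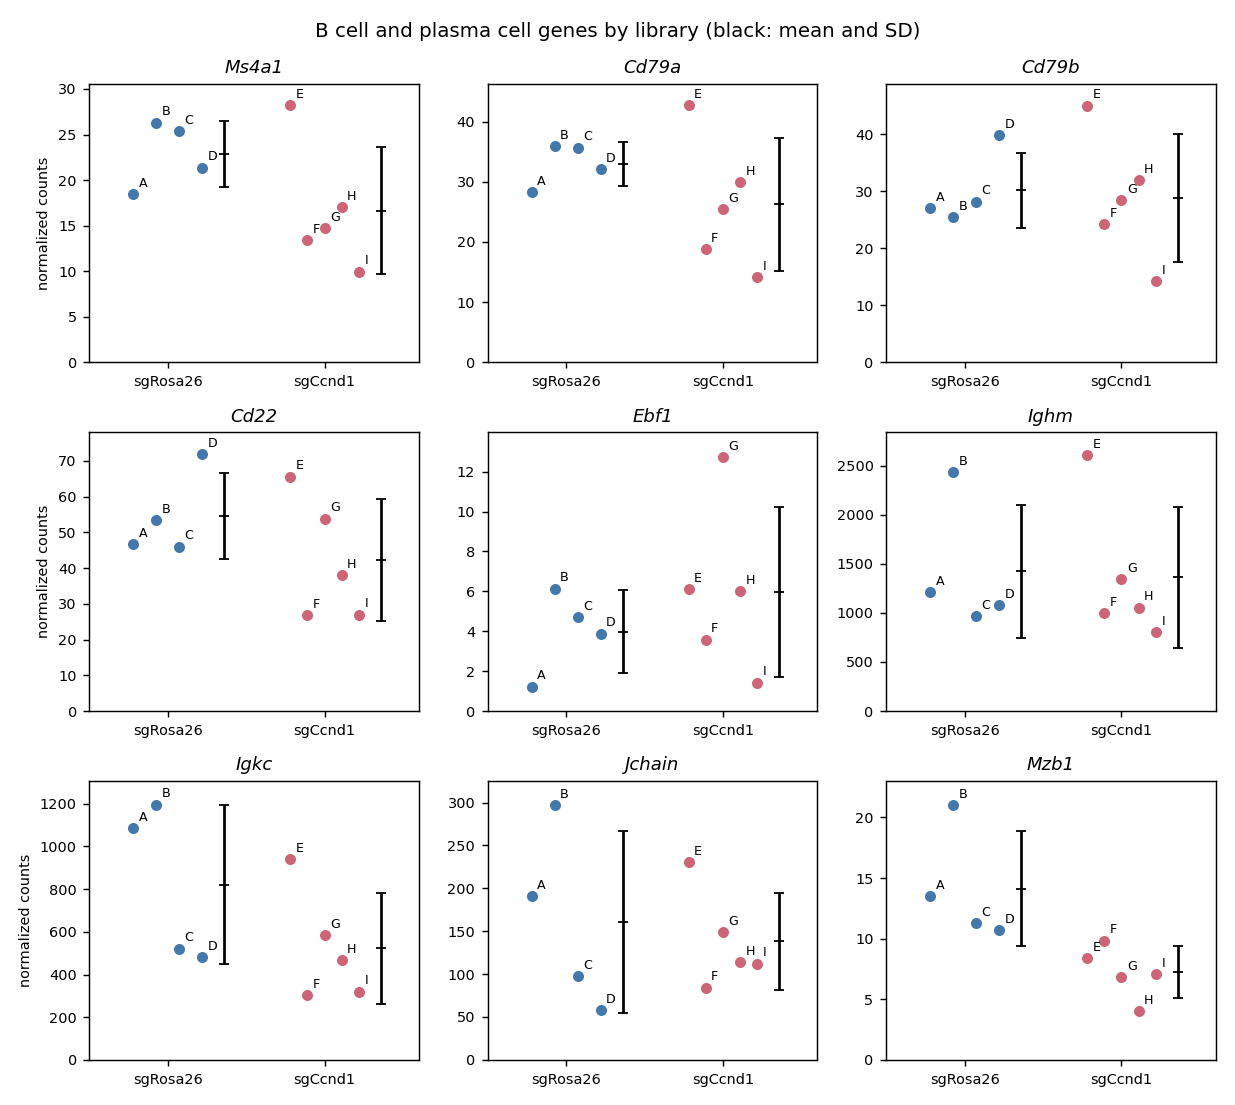
Normalized counts (y axis, from 0) of the 9 members in each library, with sgRosa26 libraries A to D in blue, sgCcnd1 libraries E to I in red and the mean and SD of each group in black. Library E is the highest of all 9 for Ms4a1 (28.2), Cd79a (42.7), Cd79b (45.0) and Ighm (2605), and the groups are separate only for Mzb1.

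Levels of different genes were compared per kilobase of exon (GENCODE M21). Over the 9 libraries Igkc stood at a mean of 1232 normalized counts per kilobase, followed by Ighm at 736, Jchain at 58.9, Cd79b at 20.5 and Cd79a at 20.1. Cd22 followed at 9.46, Mzb1 at 8.48, Ms4a1 at 3.14 and Ebf1 at 0.521. The range over libraries of Ighm did not reach that of Jchain, and the range of Ms4a1 did not reach that of Ebf1. The ranges of all other neighbours overlapped. Within libraries, Igkc was above Ighm, Cd79a above Cd22 and Mzb1 above Ms4a1 in 9 of 9, and Jchain above Cd79b in 8 of 9. Cd79b was above Cd79a in 6 of 9 libraries and Cd22 above Mzb1 in 4 of 9, so these 2 pairs had no fixed order. Igkc and Ighm were thus above every surface member in every library on this scale. The order depends on the exon lengths used, and the annotation used for counting is not known. Without division by length, the mean of Ighm (1389 normalized counts) was above that of Igkc (655), and that of Ms4a1 (19.4) above that of Mzb1 (10.3).

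Correlations were described for the surface and the immunoglobulin and secretion members, groups set by function and without Ebf1. Among Ms4a1, Cd79a, Cd79b and Cd22, Pearson's r of log2 values over the 9 libraries was 0.73 to 0.96 in the 6 pairs (median 0.81), and 0.69 to 0.96 after the group means were taken out. Among Ighm, Igkc, Jchain and Mzb1 it was 0.36 to 0.82 (median 0.68). Mzb1 was the loosest of these, with r of 0.41 to Ighm, 0.56 to Igkc and 0.36 to Jchain, and its r to Ms4a1 was 0.48. After the group means were taken out, these values of Mzb1 were 0.53, 0.34, 0.52 and 0.10. Igkc had r of 0.71 to both Ms4a1 and Cd79a, and 0.60 and 0.63 after the group means were taken out. Between the groups of genes the 16 pairs had r from -0.03 to 0.71 (median 0.44). These are descriptions over 9 libraries that share the size factor of each library, and no p is given.

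The mean z-score of the surface genes was highest in E (1.25) and then in D (0.80), and lowest in I (-1.81) and F (-1.0). The mean z-score of the immunoglobulin genes was highest in B (1.59) and E (0.88), and lowest in I (-0.81). D was thus high for surface genes and low (-0.53) for immunoglobulin genes, while A was at -0.001 and 0.65. E was the deepest library, F, at 18.1 M reads, the next deepest, and I the shallowest. F was low for both means. The part of depth in these levels was not tested.

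**Figure D2:**
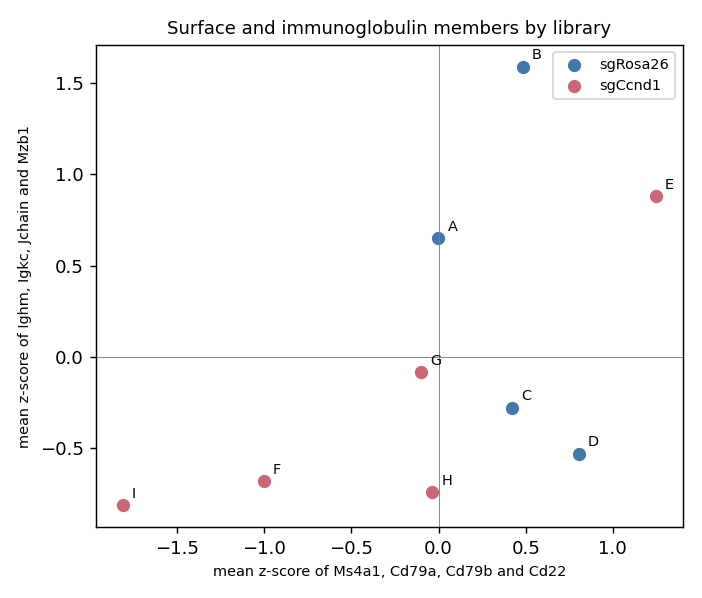
Each point is a library, with the mean z-score over 9 libraries of 4 surface genes on the x axis and of 4 immunoglobulin and secretion genes on the y axis (no units). E is high on both axes (1.25 and 0.88), I is low on both (-1.81 and -0.81), and D is high on the first only (0.80 and -0.53).

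Among genes outside the 9, patterns like the surface mean were those of Mfsd11 (r = 0.93), Plcb2 (0.93), Tbc1d10c (0.91) and Trpv2 (0.89). For the immunoglobulin mean the nearest were Tnxb (r = 0.96), Cxcr4 (0.95), Vil1 (0.92), Nlgn2 (0.92) and Gdf10 (0.91). The genes were ranked out of 12993 over only 9 libraries that share a size factor each, and 5 of the 10 remained among the 5 nearest after group means were taken out.

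Of the 91 further genes of 6 related lists in the table, 70 were tested and 0 passed in limma in either direction. DESeq2 called 1, Spi1, lower, against 0.634% of all genes, and 0 when library H was left out. At an unadjusted limma p under 0.05 there were 13 lower and 1 higher of the 70, beside 5.74% and 5.22% of all genes. Without overlap 3 were lower and 0 higher, beside 1.97% and 1.92% of all genes. The median log2 fold change of the 70 was -0.34, against 0.01 over all genes tested. Many of these genes are shared with macrophages or hepatocytes, as named below.

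Of the B receptor and surface list, 25 of 30 genes were tested, 21 with a log2 fold change below 0 and a median of -0.34. The smallest p belonged to Fcmr, the Fc receptor for IgM, at 17.6 ± 3.30 normalized counts in sgRosa26 (SD, n = 4) and 7.43 ± 2.74 in sgCcnd1 (SD, n = 5). Its groups did not overlap, and limma put the log2 fold change at -1.21 (SE 0.335, adjusted p = 0.266). Cd180, a Toll-like receptor homologue of B cells and myeloid cells, was at 38.7 ± 2.42 and 25.7 ± 6.18 normalized counts, also without overlap (log2 fold change -0.60, limma adjusted p = 0.315). Cd40, the receptor for T cell help, was at 14.2 ± 4.77 and 6.64 ± 1.85 (log2 fold change -0.97, limma adjusted p = 0.334).

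Among 11 tested transcription factors the median log2 fold change was -0.47. Spi1, which encodes PU.1 and is also a macrophage factor, was at 86.1 ± 11.1 and 51.7 ± 10.4 normalized counts without overlap. Its log2 fold change was -0.74 (limma adjusted p = 0.245), and DESeq2 called it lower with all 9 libraries (DESeq2 adjusted p = 0.0306) but not without H. Ikzf3, which encodes Aiolos, was at 27.1 ± 13.0 and 12.2 ± 8.48 (log2 fold change -1.19, limma adjusted p = 0.389), and Spib at 21.1 ± 2.24 and 15.3 ± 3.99 (log2 fold change -0.47, limma adjusted p = 0.481). Pax5, which keeps B cell identity, had a mean of 5.83 normalized counts and was not tested.

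In the plasma cell list the median of 15 tested genes was 0.02. Several of its genes, such as Xbp1 and Edem1, are also expressed by hepatocytes. The smallest p were those of Slamf7 (log2 fold change -0.98, limma adjusted p = 0.375), Edem1 (0.20, limma adjusted p = 0.444) and Irf4 (-0.65, limma adjusted p = 0.521). Tnfrsf17, which encodes the plasma cell receptor BCMA, had a mean of 0.540 normalized counts and was not tested.

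For survival and homing genes 6 of 15 were tested, with a median of -0.32. The smallest p were those of Ccr7, a homing receptor for lymph nodes (log2 fold change -1.10, limma adjusted p = 0.461), Ltb (-0.59, limma adjusted p = 0.504) and Cxcr4 (-0.50, limma adjusted p = 0.514). The cytokine genes Tnfsf13b (BAFF) and Tnfsf13 (APRIL), which keep B cells and plasma cells alive, had means of 9.68 and 3.44 normalized counts and were not tested. Of genes linked to age-associated B cells, 5 were tested with a median of -0.43, and Itgax, shared with dendritic cells and macrophages, had the smallest p (log2 fold change -0.78, limma adjusted p = 0.417). Itgam was at -0.36 (limma adjusted p = 0.560) and Cxcr3 at -0.51 (limma adjusted p = 0.610).

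**Figure D3:**
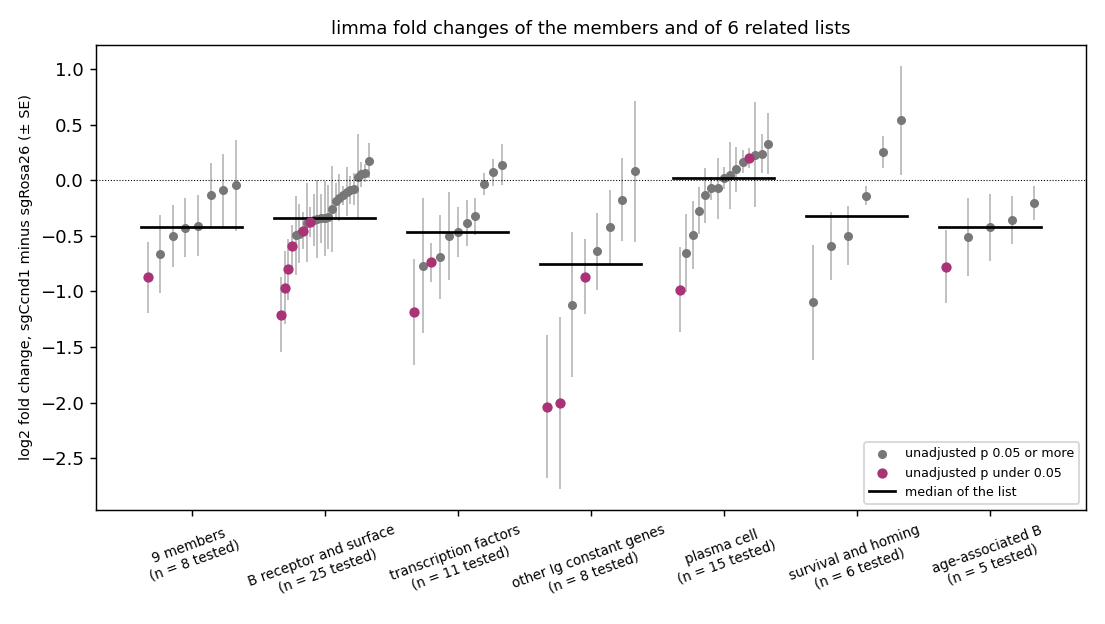
Log2 fold changes from limma, sgCcnd1 minus sgRosa26 (y axis, with standard errors), of the 8 tested members and of the tested genes of 6 related lists. Points with an unadjusted p under 0.05 are purple, black lines are medians, and no gene shown passed the adjustment over 12993 genes; medians run from -0.75 in the immunoglobulin constant genes to 0.02 in the plasma cell list.

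Other cell types were examined beside these values. T and NK cell markers (Cd4, Nkg7, Lck, Cd8a and others), 12 of 18 tested, had 0 called in limma, 7 lower and 0 higher at an unadjusted p under 0.05, and a median log2 fold change of -1.13. Their summed normalized counts were 182 to 494 in sgRosa26 and 85.0 to 321 in sgCcnd1, and E (321) was the highest of its group as it was for the surface B cell genes. The macrophage list (Mpeg1, Lyz2, Cd5l, Clec4f and others), all 13 tested, had 10 genes below 0 and 3 above. Its median log2 fold change was -0.25, and 0 were called in limma. At an unadjusted limma p under 0.05 there were 5 lower and 0 higher, beside 5.74% and 5.22% of all genes. DESeq2 called 3 lower (Mpeg1, Lyz2 and Cd68), beside 0.634% of all genes. The same 3 were lower without overlap, beside 1.97%. The list summed to 6173 to 6890 normalized counts in sgRosa26 and 4779 to 5880 in sgCcnd1. Without Mpeg1 and Lyz2 (log2 fold changes -0.62 and -0.44) the sums were 3526 to 4673 and 3260 to 4075 and overlapped. Cd68 was at -0.71 and C1qa, C1qb and C1qc at -0.35, -0.30 and -0.29, while Cd5l and Clec4f were both at -0.06. The dendritic list, 7 of 10 tested, had 0 called in limma, a median of -0.14 with all 7 below 0, and sums of 1709 to 2777 and 1861 to 2303 normalized counts. The neutrophil list, 4 of 6 tested, had 0 called in limma, a median of -0.51, and sums of 123 to 211 and 87.7 to 132 normalized counts. Red cell genes, a sign of blood, summed to 1163 to 2443 and 1894 to 2188 normalized counts, with a median log2 fold change of 0.05. No marker of these 5 lists was at 0 in all 9 libraries. The part of these cells in the levels of the members was not tested.

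Among the other immunoglobulin constant genes, the IgG genes differed widely from animal to animal. Of 10 such genes found, 8 were tested, 0 were called by limma, edgeR or DESeq2, and 3 were lower at an unadjusted limma p under 0.05. The highest library was 35.0 times the lowest for Ighg2c and 26.1 times for Ighg2b, against 2.68 to 3.17 times in the 4 surface members. Ighg2c, an IgG constant gene, was at 559, 154, 87.3 and 30.1 normalized counts in A to D and at 33.5, 22.4, 59.7, 16 and 29.8 in E to I. Library A alone reached over 500, and D lay within the range of sgCcnd1. In limma this came to -2.04 on the log2 scale (SE 0.642, adjusted p = 0.306), with -1.31 without A and -2.70 without D (limma adjusted p = 0.309 and 0.265). For Ighg2c edgeR gave -2.67 and DESeq2 -2.69, with edgeR and DESeq2 adjusted p-values of 0.236 and 0.0635. Ighg2b was at 532, 103, 92.9 and 20.4 in A to D and at 57.9, 33.1, 61.7, 39.0 and 45.4 in E to I (log2 fold change -1.12, limma adjusted p = 0.544), and its log2 fold change was -0.33 without A and -1.88 without D (limma adjusted p = 0.781 and 0.286). For Ighg2b edgeR gave -1.95 and DESeq2 -1.98, with edgeR and DESeq2 adjusted p-values of 0.336 and 0.270.

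Ighg1 was at 144, 18.4, 39.4 and 11.7 normalized counts in A to D and at 31.3, 10.7, 6.85, 1 and 7.10 in E to I (log2 fold change -2.0, limma adjusted p = 0.375; without A -1.31, limma adjusted p = 0.465). Igha, of the IgA heavy chain, was at 57.8, 193, 48.8 and 18.5 in A to D and at 20.6, 68.9, 64.6, 44.0 and 187 in E to I, with its highest values in B and I (log2 fold change 0.08, limma adjusted p = 0.973), and its sign turned with edgeR (-0.14) and DESeq2 (-0.06), and in limma without D (-0.44) or I (-0.33). Ighd, of the IgD of naive B cells, was at -0.42 on the log2 scale (limma adjusted p = 0.667). The lambda constant genes Iglc1, Iglc2 and Iglc3 were at -0.87, -0.18 and -0.64 on the same scale, with limma adjusted p-values of 0.375, 0.897 and 0.524. Ighg3 and Ighe, with means of 3.26 and 0.273 normalized counts, were not tested. The gamma genes are close paralogs, as are the lambda genes, and how reads shared between them were counted is not given in the sources used here.

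As a share of all heavy-chain constant reads, Ighm took 47.9%, 82.4%, 75.7% and 89.1% in A to D and 93.4%, 85.8%, 84.7%, 89.2% and 73.9% in E to I. The 95% Wilson interval was 45.7% to 50% in A, from 2064 such reads, and 70.7% to 76.9% in I, from 770. IgG genes took 48.8%, 9.5%, 17.6% and 5.47% in A to D and 4.43%, 6.02%, 8.21%, 4.99% and 7.79% in E to I. Library A stood far above the rest, and D overlapped with sgCcnd1. The mean IgG share was 20.3% ± 19.6 (SD, n = 4) against 6.29% ± 1.67 (SD, n = 5), a difference within the SD of the controls (exact two-sided permutation p = 0.0397, 0.198 after Benjamini-Hochberg adjustment over 5 such measures). Without A the sgRosa26 mean was 10.9% ± 6.17 (exact permutation p = 0.125). Without D it was 25.3% ± 20.7 (exact permutation p = 0.0179, the smallest possible with 3 against 5). Leaving out any other single library gave an exact permutation p of 0.0714 to 0.143.

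The Igha share averaged 3.54% ± 2.21 and 6.32% ± 6.33 (exact permutation p = 0.571, adjusted 0.714), with the highest value, 17.1%, in I, and without I the means were 3.54% and 3.62%. The Ighm share averaged 73.8% ± 18.1 and 85.4% ± 7.26 (exact permutation p = 0.206, adjusted 0.437), and without A 82.4% and 85.4%. Lambda reads were 6.21% ± 2.05 of light-chain constant reads in sgRosa26 and 6.68% ± 2.07 in sgCcnd1 (exact permutation p = 0.738, adjusted 0.738), and the sign of that difference turned without A, F or H. All constant genes together took 191 ± 91.5 and 135 ± 64.0 CPM (reads scaled to the library total) (exact permutation p = 0.262, adjusted 0.437), with 244, 293, 118 and 110 in A to D and 245, 91.9, 135, 109 and 93.3 in E to I. Without B the difference of the CPM means, sgCcnd1 minus sgRosa26, was -22.2 in place of -56.3. The high libraries A, B and E thus came from both groups. Intervals cover counting error only, since reads were not identified by molecule.

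**Figure D4:**
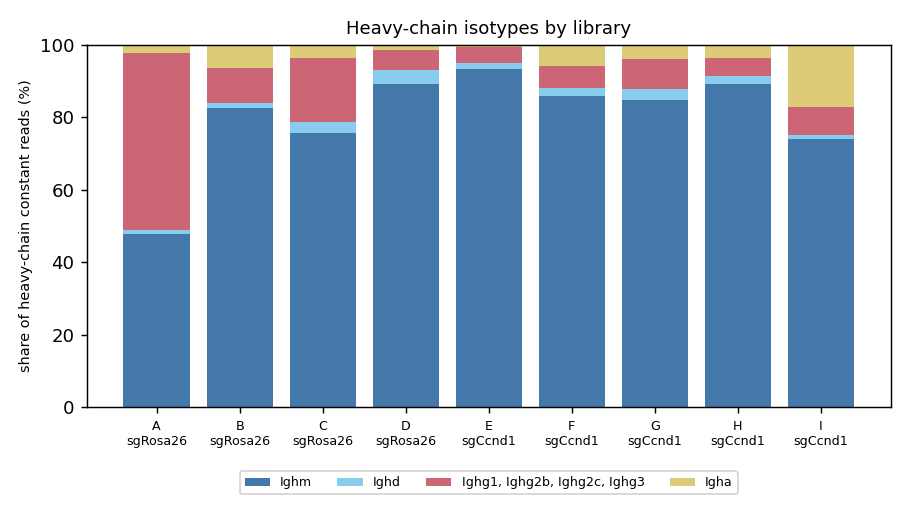
Stacked bars give the share (%) of heavy-chain constant reads that fell on Ighm, Ighd, the 4 IgG genes and Igha in each library. Ighm takes 73.9% to 93.4% in all libraries but A, where it takes 47.9% and IgG genes take 48.8%.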

How the data were processed

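Bulk poly(A) RNA-seq of liver was deposited as 1 table. Its signal, named normalized counts by the file, was made by the authors; per the submitters' processing notes, Trim Galore 0.6.7, HISAT2 2.2.1, featureCounts 2.0.3 and DESeq2 2.11.40.8 were used with mm10 (GRCm38), while the annotation and strand setting are not given in the sources used here. In each library 100% of deposited values were whole multiples of 1 number (tolerance 0.05), so reads could be recovered. For library H that number was too near 1 for an automatic check, so count models were also run without H.

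The members and lists were chosen with earlier results of these data known. Tests used limma 3.58.1 in R 4.3.3 with an intensity trend on log2(normalized count + 1), a scale that understates changes of low genes, two-sided, for 12993 genes with a mean of at least 10, with Benjamini-Hochberg adjustment over all of them and a threshold of 0.05. Single values were compared by exact permutation over the 126 splits. P-values measure the spread between these samples. Alternatives were other pseudocounts and filters, quantile and 75th percentile scaling, robust eBayes, array weights, each library left out, edgeR 4.0.16 and DESeq2 1.42.0. Procedures were tested on simulated data. DESeq2 left 1010 adjusted p-values undefined, those of Ms4a1 and Mzb1 among them. Named genes were the members, Ccnd1, the 3 smallest p of each related list and all immunoglobulin constant genes. Also named were the 5 nearest patterns of each mean and leading markers of other cell types. Genes below the minimum mean (Pax5, Tnfrsf17, Tnfsf13b, Tnfsf13) and Siglech, Ddx3y, Cd68, C1qa, C1qb and C1qc were named after their values were seen. One gene among the nearest patterns is not reported here.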

Additional observations from a re-analysis of the deposited data

Results flagged for a closer look

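A search for a library standing far from the rest of its group covered the 9 members, the other 10 immunoglobulin constant genes and 5 isotype measures. It found 5 such cases in 47 sets of values, where chance gives about 1 in 20. Ighm reached 2433 normalized counts in control library B, while the remaining controls lay between 970 and 1215. Control library A had 532 normalized counts of Ighg2b, with 20.4 to 103 in the remaining controls. In the same library Ighe was at 2.46 normalized counts, which is 2 reads, and the remaining controls had 0, so any read there would have stood apart and this set does not count toward the chance share. Igha stood at 187 normalized counts in sgCcnd1 library I, where the remaining sgCcnd1 libraries ranged from 20.6 to 68.9. Immunoglobulin constant genes together took 245 CPM in sgCcnd1 library E, and 91.9 to 135 CPM in the remaining sgCcnd1 libraries.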

How the results depend on the processing

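No paired analysis was possible because replicate numbers are missing from the column names. Count models fitted without H, macrophage sums without Mpeg1 and Lyz2, and isotype measures and the share of all genes without overlap with each library left out, were added after seeing the data.

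Members called stayed at 0 in both directions under every alternative that was run, although DESeq2 without H left the adjusted p of Ms4a1, Cd79a, Cd79b and Mzb1 undefined. The number of members lower without overlap, 1, was 1 to 2 when a library was left out, and the second, without E, was Ms4a1. Over all genes tested, 2.29% to 4.27% were lower without overlap in those designs. Ms4a1, Cd79a, Cd22, Igkc and Mzb1 kept a negative sign and Ebf1 a positive one wherever they could be fitted. Mzb1 could not be tested at a minimum mean of 100, nor without A or B, where its mean was under 10, and was at -0.48 with a pseudocount of 10. Cd79b turned to 0.0048 without D and 0.087 without I, and ranged from -0.31 to 0.087 when a library was left out. Ighm turned to 0.0028 with array weights, 0.0080 with DESeq2 and 0.0078 with edgeR without H, 0.20 without B and 0.062 without I (from -0.36 to 0.20 over libraries left out). Jchain turned to 0.12 with array weights, 0.12 without A, 0.33 without B, 0.11 without F, 0.0010 without H and 0.0068 without I (from -0.44 to 0.33). The cause was not tested. Of related genes, 1 (Spi1) was called lower with DESeq2, and 0 with DESeq2 without H.

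Genes called lower over the table, 1 by limma, were 76 with DESeq2, 25 with DESeq2 without H, 0 with edgeR without H, 2 with quantile normalization and 0 to 2 when a library was left out. Genes called higher, 0 by limma, were 41 with DESeq2 and 16 without H. Ccnd1 was at -1.02 with edgeR without H (edgeR adjusted p = 0.0559) and from -1.11 to -0.96 when a library was left out, where it lost the threshold without B, D, F, H or I and fewer samples entered the fit. After group means were taken out, 5 of the 10 nearest patterns remained. Depth limits Ebf1, with 1 to 13 reads, and Mzb1, with 4 to 24.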

Other observations

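Immunoglobulin variable segments, examined after the constant genes had been seen, are described here by their reads in each liver. The table holds 103 kappa (Igkv), 120 heavy (Ighv) and 3 lambda (Iglv) segments with a symbol. Kappa segments had 698, 740, 365 and 238 reads in A to D and 1016, 221, 507, 341 and 201 in E to I, spread over 44 to 68 segments per library. Igkv3-2 was the most abundant kappa segment in 5 of the 9 libraries. It took 17.8% of kappa segment reads in A, 17.4% in B, 39.5% in E (95% Wilson interval 36.5% to 42.5%), 23.5% in F and 20.7% in G. Igkv5-39 led in D with 18.1% and in H with 20.2%, Igkv1-135 in C with 10.1%, and Igkv19-93 in I with 23.4%. Library E, the highest for the surface B cell genes, thus had 401 of its 1016 kappa segment reads on a single segment.

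Some segments had most of their reads in a few libraries. Igkv4-70 had 126 reads in B and 42 in D, both controls, and 0 to 8 in the other 7 libraries. The heavy segment Ighv1-50 had 35 reads in B and 17 in D and 0 to 4 elsewhere, and it was the leading heavy segment in those 2 libraries. In F, Ighv1-56 took 32.5% of only 77 heavy segment reads, with 25 reads in F and also 25 in E. Variable segments are near-identical paralogs that are changed by hypermutation, and how reads shared between them were assigned is not given in the sources used here. No test between groups was made.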
